A study of Mus musculus with 14 samples.

Results

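Of 40 listed genes that act in mitosis and at the kinetochore, 39 were measured on 14 Affymetrix whole-transcript arrays, among 19935 genes in all. The list was given by gene symbol, and a gene with several probe sets was represented by the brightest of them on average. Only Ccnb1 had no probe set annotated to it alone in the platform table and is not analysed here. The arrays were of embryonic fibroblasts from ICR mice, grown in medium for mouse embryonic stem cells and transduced with SKO+HDAC7, SKO+MEF2C, SKO+Flag (SKO with the empty vector) or GFP. They were lysed at day 6 or day 10, after feeder cells had been removed. HDAC7 is a class IIa histone deacetylase, MEF2C is a transcription factor to which class IIa deacetylases bind, and Flag is the empty-vector control. SKO is not written out in the labels; it usually means Sox2, Klf4 and Oct4, the reprogramming factors, and the sources used here do not give the promoter of the vectors or the share of cells transduced. Each of the SKO groups had 2 arrays a day, numbered as experiments 1 and 2, and GFP had 1 array a day.

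Entry into mitosis is driven by cyclin A and cyclin B bound to Cdk1, which Cdc25 phosphatases switch on, and the transcription factor Foxm1 activates many mitotic genes. Polo-like and Aurora kinases build the spindle and correct its attachments, the kinetochore joins each centromere to microtubules, and the spindle checkpoint holds back anaphase until all are attached. Because their transcripts peak in G2 and M phase, such genes are widely used to mark proliferating cells, and fibroblasts that are being reprogrammed are known to divide faster. A bulk array cannot tell fewer dividing cells from less of these transcripts per cell.

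Many mitotic promoters carry the cell cycle genes homology region, with the core TTTGAA, and CCAAT boxes, the sites of the factor NF-Y. Both were looked for on both strands in the RefSeq windows from 250 bases before to 50 bases after each gene's start (assembly GRCm38.p6), and overlapping matches were each counted. Windows were held for 32 of the 39 genes. TTTGAA was present in 23 of these 32 (71.9%), against 20.2% of 27025 genes with a window. CCAAT was present in 24 (75%), against 41.1%, and both were present in 20 (62.5%), against 7.97%. In 21 of the 32 genes a TTTGAA lay no further than 50 bases before the start or in the 50 bases after it. The same count was not taken over all genes. Neither run of letters was found in the windows of Birc5, Melk, Nuf2, Mad2l1 and Pttg1, which says only that these letters are not in those windows. The windows of 6 genes are shown because their array values are given in full below and a match was found, 5′ to 3′ on the gene's strand, with every TTTGAA and every match to CCAAT, read on either strand, in capitals.
Bub1b (chr2:118597961-118598260, plus strand): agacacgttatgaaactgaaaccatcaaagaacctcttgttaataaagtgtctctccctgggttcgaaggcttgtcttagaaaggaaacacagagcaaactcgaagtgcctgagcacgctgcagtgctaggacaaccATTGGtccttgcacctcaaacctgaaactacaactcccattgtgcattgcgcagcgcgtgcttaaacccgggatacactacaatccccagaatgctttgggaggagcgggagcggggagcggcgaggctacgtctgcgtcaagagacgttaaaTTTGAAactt
Cenpa (chr5:30666636-30666935, plus strand): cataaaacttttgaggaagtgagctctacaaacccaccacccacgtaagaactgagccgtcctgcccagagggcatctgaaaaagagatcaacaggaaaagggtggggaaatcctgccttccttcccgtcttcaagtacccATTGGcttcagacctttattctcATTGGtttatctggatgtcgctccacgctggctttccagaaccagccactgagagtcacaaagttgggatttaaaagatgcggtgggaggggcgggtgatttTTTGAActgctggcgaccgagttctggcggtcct
Top2a (chr11:99024140-99024439, minus strand): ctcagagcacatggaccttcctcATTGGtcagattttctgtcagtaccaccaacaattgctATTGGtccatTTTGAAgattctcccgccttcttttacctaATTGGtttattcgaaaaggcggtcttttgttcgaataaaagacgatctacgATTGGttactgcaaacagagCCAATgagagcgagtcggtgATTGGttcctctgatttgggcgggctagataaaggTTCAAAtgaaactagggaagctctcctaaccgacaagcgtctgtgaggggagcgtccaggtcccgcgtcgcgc
Mki67 (chr7:135716330-135716629, minus strand): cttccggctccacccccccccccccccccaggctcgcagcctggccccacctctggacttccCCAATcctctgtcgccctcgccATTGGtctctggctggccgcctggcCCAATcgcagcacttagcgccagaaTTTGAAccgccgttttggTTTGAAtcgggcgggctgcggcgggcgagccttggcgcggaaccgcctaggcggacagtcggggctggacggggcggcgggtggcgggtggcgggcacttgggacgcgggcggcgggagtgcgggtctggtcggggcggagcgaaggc
Anln (chr9:22389157-22389456, minus strand): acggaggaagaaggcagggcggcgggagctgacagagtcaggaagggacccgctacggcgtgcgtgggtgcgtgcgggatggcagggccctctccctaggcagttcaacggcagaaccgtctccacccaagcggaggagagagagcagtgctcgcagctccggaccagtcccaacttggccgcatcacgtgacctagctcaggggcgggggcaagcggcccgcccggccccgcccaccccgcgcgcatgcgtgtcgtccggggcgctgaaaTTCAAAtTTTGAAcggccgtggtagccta
Ect2 (chr3:27153829-27154128, minus strand): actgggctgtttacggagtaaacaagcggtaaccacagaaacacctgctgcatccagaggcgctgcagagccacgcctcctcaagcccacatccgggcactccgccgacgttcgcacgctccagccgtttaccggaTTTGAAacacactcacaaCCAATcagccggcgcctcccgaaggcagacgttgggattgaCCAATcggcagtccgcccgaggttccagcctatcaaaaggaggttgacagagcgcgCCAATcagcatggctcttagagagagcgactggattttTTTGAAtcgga
In the Cenpa and Bub1b windows the TTTGAA began 17 and 41 bases after the start, with inverted CCAAT boxes upstream of it. Top2a held 6 CCAAT matches and 2 of TTTGAA. Anln held 2 TTTGAA matches and no CCAAT. Ect2 had 2 annotated windows, of which 1 is shown.

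Hdac7, Mef2c and Pou5f1 (Oct4) were high on the arrays whose labels name them or SKO, and Sox2 and Klf4 were not. Hdac7 lay at 11.2 to 11.4 on the SKO+HDAC7 arrays, against 6.78 to 7.44 on all others, on the log2 scale of the deposited values. Mef2c lay at 9.48 to 9.93 on the SKO+MEF2C arrays, against 6.31 to 6.81 elsewhere. Pou5f1 lay at 11.7 to 12.1 on the SKO arrays, against 5.24 and 5.18 on the GFP arrays. Sox2 lay at 5.04 to 5.37 on the SKO arrays, against 4.93 and 5.27 on the GFP arrays, and Klf4 at 8.80 to 9.18, against 8.93 and 8.66, so both overlapped between SKO and GFP. Whether their probes lie in the transduced sequence is not given in the sources used here. Fibroblast markers were present throughout: 10 of 11 lay above the array's median gene on all arrays, and Lum did so on 9 arrays. Of the macrophage and blood markers, 6 of 8 (Ptprc, Lyz2, Adgre1, Csf1r, Aif1 and Cd14) lay below the array's median gene on all arrays. So did 6 of 7 endothelial markers (all but Tek). Cd68 lay above the array's median gene on 13 arrays, Tek on 12 and Itgam on 6. Within pairs of replicate arrays, the SD of the difference over all genes was 0.117 to 0.171, widest for SKO+Flag at day 10. In that pair, experiment 1 was more than 0.5 below experiment 2 in 4 mitotic genes (Cenpe, Cenpf, Bub1 and Mki67), whereas no mitotic gene differed by 0.5 in any other pair. The counts of day 10 that involve SKO+Flag are therefore also given without this array. The same holds for the counts averaged over days for HDAC7 and MEF2C against SKO+Flag. Whether experiments 1 and 2 were separate cultures is not stated, so a p-value measures only array-to-array spread, which may be technical.

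The mitotic genes were highest with SKO+HDAC7, lower with SKO+Flag, lower again with SKO+MEF2C and lowest with GFP. By the mean over both days, 36 of the 39 genes (92.3%) followed this order of vectors, against 8.86% of all 19935 genes. The other 3 genes, the centrosomal kinase Nek2, the checkpoint protein Mad2l1 and the checkpoint kinase Ttk, averaged lower with SKO+HDAC7 than with SKO+Flag, by less than their SE for Mad2l1 and Ttk, with SKO+MEF2C and GFP below both. On each array the genes' median deviation from their own mean over the 14 arrays was taken. It was 0.21 and 0.23 on the SKO+HDAC7 arrays at day 6 and 0.29 and 0.35 at day 10. It was -0.11 and -0.12 on the SKO+MEF2C arrays at day 6 and -0.18 and -0.14 at day 10. For SKO+Flag it was 0.24 and 0.17 at day 6 and -0.03 and 0.11 at day 10, and for GFP it was -0.39 at day 6 and -0.57 at day 10. Thus the SKO+HDAC7 and SKO+Flag arrays overlapped at day 6 and stood apart at day 10, while the SKO+MEF2C and GFP arrays lay below both on both days.

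**Figure D1:**
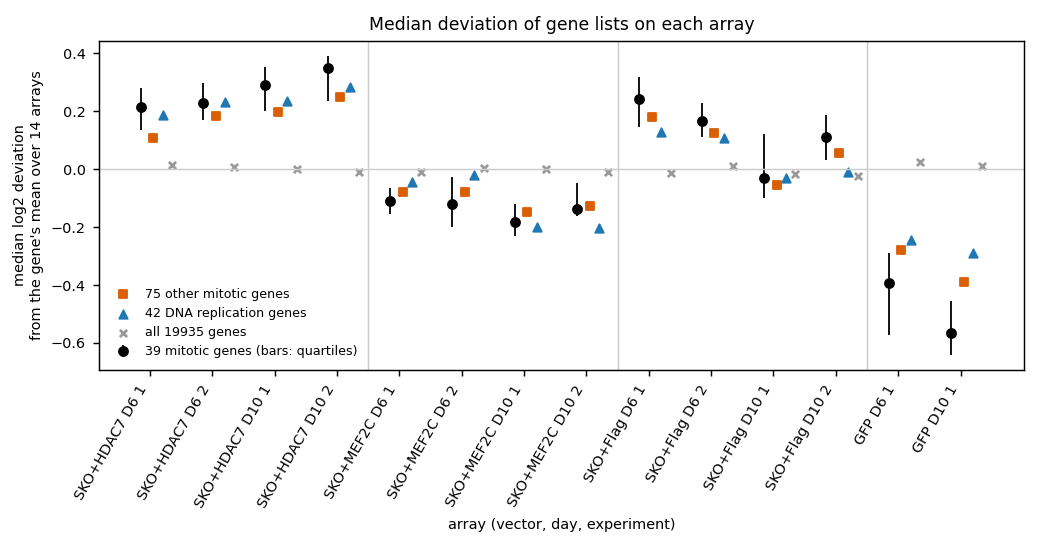
Median deviation of 39 mitotic genes (black, bars are quartiles), 75 other mitotic genes, 42 DNA replication genes and all genes from each gene's mean over the 14 arrays, on the log2 scale, for each array. The mitotic genes run from 0.35 on the second SKO+HDAC7 array of day 10 to -0.57 on the GFP array of day 10, while all genes stay close to 0.

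**Figure D2:**
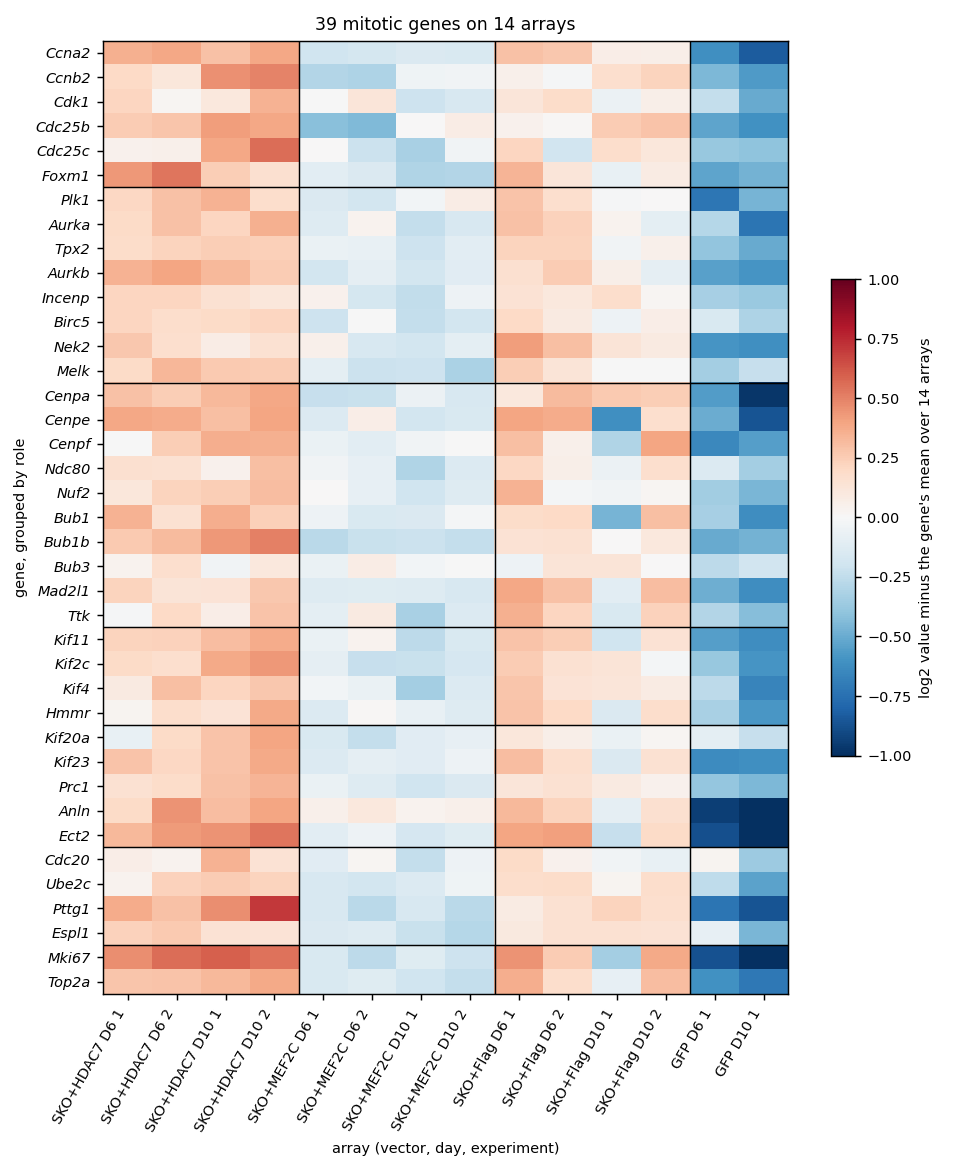
Deviation of each of the 39 genes (rows, by role, lines between roles) from its mean over the 14 arrays (columns, by vector and day), in log2 units, red above and blue below that mean. The first SKO+Flag array of day 10 is low in Cenpe, Cenpf, Bub1 and Mki67.

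Addition of HDAC7 to SKO was compared with the empty vector in 1 limma model over all 14 arrays, with differences averaged over the days. A gene was called where its p, adjusted by Benjamini-Hochberg over all 19935 genes, was under 0.05. With SKO+HDAC7, 8 of 39 mitotic genes rose and 0 fell relative to SKO+Flag, where limma called 4.83% of all genes higher and 6.06% lower. No mitotic gene was lower at an unadjusted p under 0.05 either, and 20 were higher at it. The median difference of the 39 genes was 0.14, against 0.02 for all genes, and 36 of 39 differences were above 0. Differences were small, from -0.07 for Nek2 to 0.35 for Mki67.

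The genes that rose with HDAC7 were led by Pttg1, which encodes securin, the inhibitor of separase. Pttg1 stood at 7.05 and 6.97 on the SKO+HDAC7 arrays of day 6 and at 7.14 and 7.39 on those of day 10, against 6.76 and 6.83, and 6.90 and 6.85, on the SKO+Flag arrays. All SKO+HDAC7 values lay above all SKO+Flag values, and the difference was 0.30 ± 0.06 (SE), or 1.23-fold (limma adjusted p = 0.00784). Bub1b, which encodes the checkpoint protein BubR1, stood at 7.93 and 7.99 on day 6 and 8.10 and 8.18 on day 10 with SKO+HDAC7, against 7.82, 7.83, 7.68 and 7.78 with SKO+Flag. Again the groups did not overlap, and the difference was 0.28 ± 0.04 (limma adjusted p = 0.00174). Aurkb, the Aurora kinase of the chromosomal passenger complex, stood at 8.34, 8.39, 8.32 and 8.25 with SKO+HDAC7, against 8.15, 8.25, 8.05 and 7.90 with SKO+Flag. Its groups overlapped only across days, and its difference was 0.24 ± 0.05 (limma adjusted p = 0.0115). Foxm1 stood at 7.47 and 7.57 on day 6 and 7.28 and 7.19 on day 10 with SKO+HDAC7, against 7.38, 7.15, 6.96 and 7.12 with SKO+Flag. Within each day its SKO+HDAC7 values were the higher ones, and the difference was 0.22 ± 0.06 (limma adjusted p = 0.0341).

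Of the genes that drive mitotic entry, 4 of 6 rose. Beside Foxm1, these were the B-type cyclin Ccnb2 (0.21), the phosphatase Cdc25b (0.19) and the cyclin Ccna2 (0.18). Cdk1 itself differed by 0.10 ± 0.07 and Cdc25c by 0.18 ± 0.09, and neither passed. Of 8 mitotic kinases and passenger proteins, Aurkb alone passed. Plk1 differed by 0.14 ± 0.05 and Aurka by 0.15 ± 0.06. Among 10 kinetochore and checkpoint genes Bub1b alone passed, while the centromeric histone Cenpa differed by 0.08 ± 0.05. Of 5 genes of the central spindle and cytokinesis only Prc1, which bundles midzone microtubules, passed (0.14 ± 0.04, limma adjusted p = 0.0499). Pttg1 was the only one of 4 genes of anaphase entry to pass, and neither Hmmr nor any of the 3 spindle motors did. Mki67, which encodes the Ki-67 protein that coats mitotic chromosomes, stood at 8.73, 8.83, 8.87 and 8.81 with SKO+HDAC7, against 8.72, 8.53, 7.93 and 8.65 with SKO+Flag. Its groups did not overlap and its difference was the largest of the 39 (0.35 ± 0.12), but it did not pass (limma adjusted p = 0.0959). Groups that did not overlap over both days were found for 5 genes (Ccna2, Bub1b, Prc1, Pttg1 and Mki67), against 4.44% of all genes.

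The count rested on few arrays. It was 7 without the first SKO+Flag array of day 10, 16 without the second, and 5 without the first or without the second SKO+HDAC7 array of day 10, and quantile normalization gave 17.

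Addition of MEF2C went the other way. With SKO+MEF2C, 22 of 39 mitotic genes fell and 0 rose relative to SKO+Flag, where limma called 4.82% of all genes lower and 5.49% higher. At an unadjusted p under 0.05, 32 were lower and 0 higher. All 39 differences were below 0, from -0.40 to -0.06, with a median of -0.24, against 0.01 for all genes. In 17 genes all SKO+MEF2C values lay below all SKO+Flag values, against 3.96% of all genes. Leaving out the first SKO+Flag array of day 6 lowered the count of 22, and no other array left out lowered it further. Without the first SKO+Flag array of day 10, 29 fell, and without the second, 21 fell.

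Cenpa, the histone H3 variant that marks centromeres, fell most. It stood at 7.90 and 7.90 on day 6 and 8.06 and 7.97 on day 10 with SKO+MEF2C, against 8.23 and 8.44, and 8.39 and 8.37, with SKO+Flag. The groups did not overlap, and Cenpa was 1.32-fold lower (-0.40 ± 0.05, limma adjusted p = 0.000604). Pttg1 stood at 6.52, 6.41, 6.52 and 6.41 on the SKO+MEF2C arrays, below all 4 SKO+Flag values given above (-0.37 ± 0.06, limma adjusted p = 0.00228). Top2a, the topoisomerase that untangles sister chromatids, stood at 8.54 and 8.58 on day 6 and 8.50 and 8.46 on day 10 with SKO+MEF2C, against 9.06, 8.87, 8.61 and 9.01 with SKO+Flag. All SKO+MEF2C values were below all SKO+Flag values, the nearest being the first SKO+Flag array of day 10 (-0.37 ± 0.08, limma adjusted p = 0.0105). Mad2l1, which encodes the checkpoint inhibitor of anaphase Mad2, stood at 8.61, 8.62, 8.61 and 8.58 with SKO+MEF2C, against 9.13, 9.04, 8.63 and 9.04 with SKO+Flag. The same SKO+Flag array lay just above the highest SKO+MEF2C value, and the others were further away (-0.35 ± 0.08, limma adjusted p = 0.0145).

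By role, 4 of 6 genes of mitotic entry fell with MEF2C: Cdc25b (-0.34), Ccna2 (-0.34), Foxm1 (-0.33) and Ccnb2 (-0.28). Cdc25c (-0.22 ± 0.09) and Cdk1 (-0.14 ± 0.07) did not pass. Of 8 mitotic kinases and passengers 7 fell, with Nek2 (-0.33), the kinase Melk (-0.30), Aurka (-0.24), Aurkb (-0.24), the passenger protein survivin, encoded by Birc5 (-0.24), the Aurka activator Tpx2 (-0.23) and Plk1 (-0.18). The remaining one, the passenger scaffold Incenp, differed by -0.22 ± 0.06 (limma adjusted p = 0.0515). Of 10 kinetochore and checkpoint genes Cenpa, Mad2l1 and Bub1b (-0.34) fell. The Ndc80 complex members Ndc80 (-0.23 ± 0.07) and Nuf2 (-0.18 ± 0.07), the motor Cenpe (-0.18 ± 0.13), Cenpf (-0.17 ± 0.12) and Bub1 (-0.15 ± 0.13) did not pass. Nor did the checkpoint genes Ttk (-0.28 ± 0.09) and Bub3 (-0.06 ± 0.06). Kif2c, which depolymerises microtubules at kinetochores (-0.31), and the chromosome motor Kif4 (-0.30) fell, whereas the spindle motor Kif11 (-0.23 ± 0.07) and Hmmr (-0.21 ± 0.08) did not pass. In cytokinesis, Ect2 (-0.30) and Prc1 (-0.23) fell, and the motors Kif23 (-0.22 ± 0.07) and Kif20a (-0.18 ± 0.06) did not pass. The contractile-ring scaffold Anln differed by only -0.09 ± 0.07. At anaphase entry, Espl1, which encodes separase (-0.33), fell along with Pttg1. So did Ube2c, the ubiquitin-conjugating enzyme that works with the anaphase-promoting complex (-0.27). Cdc20, the activator of that complex, differed by -0.13 ± 0.06. Mki67 stood at 8.12, 8.01, 8.15 and 8.06 with SKO+MEF2C. Its low SKO+Flag value of 7.93 lay under all of these and the other 3 SKO+Flag values lay above them, and its difference of -0.37 ± 0.12 did not pass (limma adjusted p = 0.0872).

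**Figure D3:**
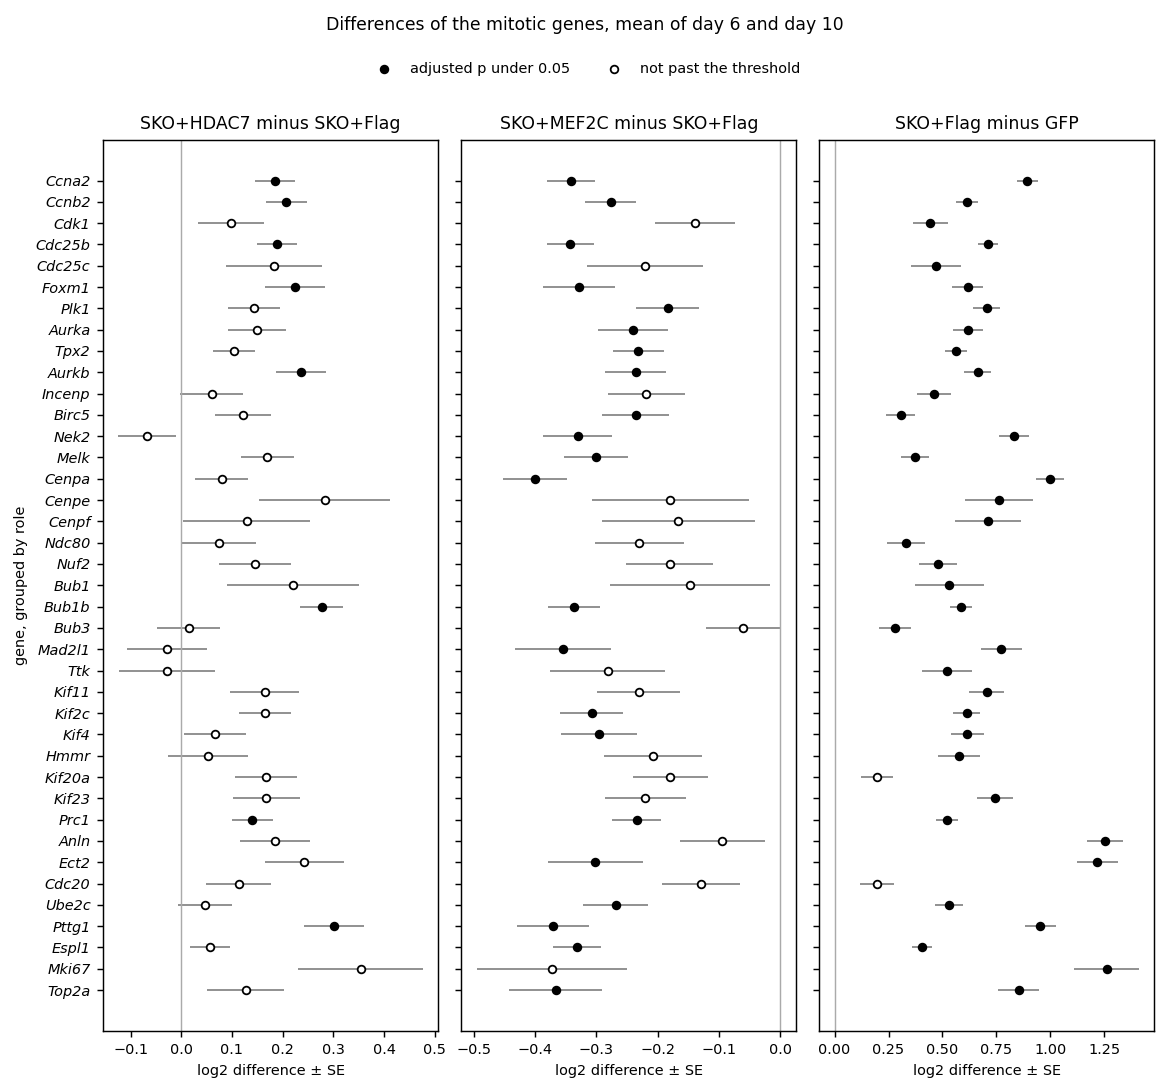
Log2 difference with its SE for each of the 39 genes, averaged over day 6 and day 10, in 3 comparisons with their own horizontal scales. Filled points passed an adjusted p under 0.05: 8 for SKO+HDAC7 minus SKO+Flag, 22 for SKO+MEF2C minus SKO+Flag and 37 for SKO+Flag minus GFP.

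The 8 genes that rose with HDAC7 were all among the 22 that fell with MEF2C, but both comparisons used the same SKO+Flag arrays. The 2 factors were therefore also set directly against each other. With SKO+HDAC7, 35 of 39 mitotic genes were higher than with SKO+MEF2C and 0 were lower, where limma called 10.3% of all genes higher and 11.8% lower. The median difference was 0.37, with a range of 0.07 to 0.73, and no gene was lower at an unadjusted p under 0.05. Mki67 differed most (0.73 ± 0.12), followed by Pttg1 (0.67 ± 0.06), Bub1b (0.61 ± 0.04), Foxm1 (0.55 ± 0.06) and Ect2 (0.54 ± 0.08). The 4 genes that did not pass were Cenpf (0.29 ± 0.12), Bub1 (0.37 ± 0.13), Bub3 (0.07 ± 0.06) and Ttk (0.25 ± 0.09). On both days together, 36 genes had every SKO+HDAC7 array above every SKO+MEF2C array, against 7.91% of all genes. The call was made in this comparison, and in neither comparison with SKO+Flag, for 13 genes: Cdk1, Cdc25c, Incenp, Cenpe, Ndc80, Nuf2, Kif11, Hmmr, Kif20a, Kif23, Anln, Cdc20 and Mki67.

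SKO+Flag was then compared with GFP. These groups also differ in carrying the empty vector or GFP, so the contrast is not of SKO alone. With SKO+Flag, 37 of 39 mitotic genes rose and 0 fell, where limma called 17.5% of all genes higher and 18.2% lower, and all 39 were higher at an unadjusted p under 0.05. The median difference was 0.61, against -0.04 for all genes, with a range of 0.19 to 1.26. In all 4 pairs of a SKO+Flag with a GFP array of the same day, 39 of 39 genes were higher with SKO+Flag, and in 36 every SKO+Flag array of both days lay above both GFP arrays, against 18% of all genes. GFP had 1 array a day, so its spread is assumed to be that of the other groups.

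Mki67 stood at 8.72, 8.53, 7.93 and 8.65 with SKO+Flag, against 7.40 and 6.99 with GFP, and was 2.40-fold higher with SKO+Flag (1.26 ± 0.15, limma adjusted p = 5.09e-05). Anln stood at 9.34, 9.24, 8.93 and 9.17 with SKO+Flag, against 8.08 and 7.75 with GFP (1.25 ± 0.08, limma adjusted p = 4.46e-07). Ect2 stood at 8.61, 8.63, 7.99 and 8.42 with SKO+Flag, against 7.34 and 7.04 with GFP (1.22 ± 0.10, limma adjusted p = 1.57e-06). Even the low first SKO+Flag array of day 10 lay above both GFP arrays in these 3 genes. Cenpa stood at 8.23, 8.44, 8.39 and 8.37 with SKO+Flag, against 7.57 and 7.15 with GFP, and the difference of 1.00 ± 0.06 amounted to 2-fold (limma adjusted p = 2.89e-07).

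All 6 genes of mitotic entry rose with SKO+Flag over GFP, from Cdk1 (0.44), Cdc25c (0.47), Ccnb2 (0.61) and Foxm1 (0.62) to Cdc25b (0.71) and Ccna2 (0.89). All 8 kinases and passengers rose, with Birc5 (0.31), Melk (0.37) and Incenp (0.46) at the low end and Tpx2 (0.56), Aurka (0.62), Aurkb (0.66), Plk1 (0.70) and Nek2 (0.83) above them. So did all 10 kinetochore and checkpoint genes. Beside Cenpa they ran from Bub3 (0.28), Ndc80 (0.33) and Nuf2 (0.48) through Ttk (0.52), Bub1 (0.53) and Bub1b (0.59) to Cenpf (0.71), Cenpe (0.76) and Mad2l1 (0.77). The microtubule-binding protein Hmmr (0.58) and the motors Kif2c (0.61), Kif4 (0.62) and Kif11 (0.70) rose. In cytokinesis Prc1 (0.52) and Kif23 (0.74) rose beside Anln and Ect2, and at anaphase entry Espl1 (0.40), Ube2c (0.53) and Pttg1 (0.95) rose. Top2a rose by 0.85. The 2 genes that did not pass were the cytokinesis motor Kif20a (0.19 ± 0.07, limma adjusted p = 0.0643) and Cdc20 (0.20 ± 0.08, limma adjusted p = 0.0727).

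**Figure D4:**
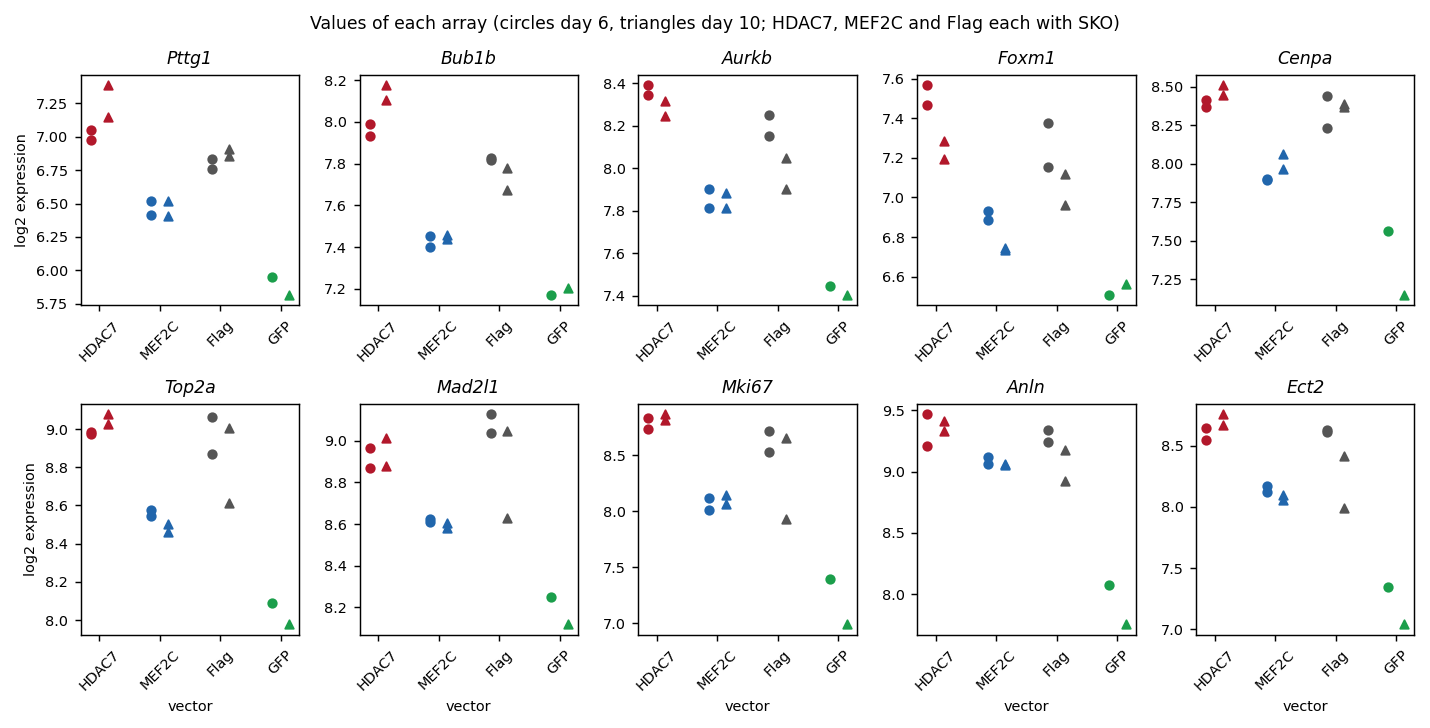
Log2 values of each array for the 10 genes whose values are given in full, by vector, with circles for day 6 and triangles for day 10. GFP points lie lowest in every panel, and 1 triangle of SKO+Flag lies apart from the other in Mki67, Ect2, Top2a and Mad2l1.

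Fibroblast markers moved against the mitotic genes in this comparison. Of 11 markers, limma called 9 lower with SKO+Flag than with GFP and 0 higher. The log2 of their summed level was 14.20 to 14.41 on the SKO+Flag arrays, against 14.80 to 15.10 on the GFP arrays, and it was 14.01 to 14.29 with SKO+HDAC7 and 14.38 to 14.48 with SKO+MEF2C. Relative to SKO+Flag, 4 of the 11 were higher and 6 lower with SKO+HDAC7, and 3 were higher and 0 lower with SKO+MEF2C. Summed macrophage and blood markers lay at 8.31 to 8.59 with SKO+HDAC7, 8.20 to 8.47 with SKO+MEF2C, 8.11 to 8.42 with SKO+Flag and 8.03 to 8.14 with GFP, and endothelial markers at 8.85 to 9.65, 8.41 to 8.68, 8.59 to 9.12 and 7.97 to 8.06 in the same order. These sums followed single genes. Of the 7 endothelial markers, limma called Tek higher (2.78) and Vwf lower (-0.26) with SKO+Flag than with GFP, and the median was -0.04. Of the 8 macrophage and blood markers, Itgam (1.00) and Cd68 (0.55) were called higher and 1 lower, and the median was -0.08. Against SKO+Flag, Tek differed by 0.60 with SKO+HDAC7 and by -0.67 with SKO+MEF2C, and Cd68 by 0.63 with SKO+HDAC7. The part of these shifts in the mitotic results was not tested.

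With MEF2C added, most mitotic genes were still above the GFP level. With SKO+MEF2C, 30 of 39 were higher than with GFP and 0 were lower, where limma called 16.6% of all genes higher and 14.6% lower, with a median difference of 0.34. The largest were Anln (1.16 ± 0.08), Ect2 (0.92 ± 0.10) and Mki67 (0.89 ± 0.15). The 9 that did not pass included Kif20a (0.02 ± 0.07), Cdc20 (0.07 ± 0.08), Espl1 (0.07 ± 0.05), Melk (0.07 ± 0.06) and Birc5 (0.07 ± 0.07). With SKO+HDAC7 all 39 were higher than with GFP, where limma called 17.5% of all genes higher and 15.9% lower, with a median difference of 0.77.

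The days were then taken apart. At day 6, only Cdc25b passed for SKO+HDAC7 over SKO+Flag, where limma called 1.82% of all genes higher and 2.76% lower, and the median of the 39 genes was 0.02, with 23 differences above 0. At day 10, 12 genes rose and 0 fell, where limma called 3.33% of all genes higher and 3.95% lower, with a median of 0.26 and 37 differences above 0. These 12 were Ccna2, Ccnb2, Aurka, Tpx2, Aurkb, Bub1b, Kif11, Kif2c, Kif20a, Prc1, Ect2 and Pttg1. Ect2 had the largest difference among them (0.51 ± 0.11) and Bub1b the next (0.41 ± 0.06). Cenpe (0.57 ± 0.18) and Mki67 (0.55 ± 0.17) differed by more on day 10 and did not pass. In the test of the change between days itself, 0 of 39 genes passed, although 14 did at an unadjusted p under 0.05, all with the larger effect at day 10, and limma called 0.0401% of all genes in that direction and 0.0853% in the other. The first SKO+Flag array of day 10 bears on this: without it 6 genes rose at day 10 with a median of 0.18, and without its partner 15 rose. With the first or the second SKO+HDAC7 array of day 10 left out, 3 or 2 genes rose, and with the compared groups fitted alone 0 did.

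Both factors were set against the same SKO+Flag arrays. In these arrays the median change of the 39 genes from day 6 to day 10 was -0.17. The effect at day 10 minus that at day 6 was above 0 in 34 of 39 genes for HDAC7 and in 30 for MEF2C. The part of the shared arrays in these day patterns was not tested. For MEF2C the median difference was further from 0 at day 6 than at day 10. At day 6, 16 genes fell and 0 rose, where limma called 1.77% of all genes lower and 1.33% higher, with a median difference of -0.31 and all 39 differences below 0. At day 10, 9 fell and 0 rose, where limma called 3% of all genes lower and 4% higher, with a median of -0.21. Ccna2, Ccnb2, Cdc25b, Cenpa, Bub1b and Espl1 fell on both days. Ccna2 fell by 0.47 at day 6 and by 0.21 at day 10, and Plk1 fell by 0.39 at day 6 and differed by 0.03 ± 0.07 at day 10. The difference was less negative at day 10 in 30 of 39 genes and more negative in 9 (Cdk1, Cdc25c, Incenp, Ndc80, Bub3, Kif4, Prc1, Pttg1 and Espl1). Among these 9, the differences of Espl1 and Pttg1 were -0.26 and -0.33 at day 6 and -0.40 and -0.41 at day 10. Kif4 differed by -0.25 at day 6 without passing and fell by 0.34 on day 10. None of the 39 changes of effect between days passed in limma, and 4 did at an unadjusted p under 0.05, with the smaller effect at day 10, where limma called 0.0451% of all genes in that direction and 0.0401% in the other. Leaving out the first SKO+Flag array of day 10 left 8 genes lower at day 10. Leaving out the second left 4 genes lower at day 10 and turned Bub1 and Cenpe into calls of higher, with only the lower array left in that group. Without the first or the second SKO+MEF2C array of day 10, 3 or 2 genes fell at day 10. At day 6, 4 or 6 genes fell without the first or the second SKO+Flag array of that day, 3 without either SKO+MEF2C array of that day, and 21 without either SKO+Flag array of day 10. With the compared groups fitted alone, 6 fell at day 6 and 1 at day 10.

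Between HDAC7 and MEF2C, 22 genes were higher with SKO+HDAC7 at day 6, where limma called 5.68% of all genes higher and 6.98% lower, with a median difference of 0.30. This count was 14 or 12 without the first or the second SKO+HDAC7 array of day 6, and 13 without the second SKO+MEF2C array of day 6. At day 10, 28 were higher, where limma called 7.46% higher and 8.55% lower, with a median of 0.43, and 20 were called on both days. No mitotic gene was lower on either day. For SKO+Flag over GFP, 33 genes rose at day 6, where limma called 13.2% of all genes higher and 10.8% lower, and 31 at day 10, where it called 13.7% higher and 13.2% lower. The medians were 0.58 and 0.59, and 29 genes rose on both days. The day 6 count was lower without the first SKO+Flag array of day 6, and the day 10 count without the second of day 10. Without the first SKO+Flag array of day 10, 34 rose at day 10. The effect differed between days for Espl1 alone, where limma called 1.9% of all genes with a more positive and 3.16% with a more negative effect at day 10. The Espl1 call was lost without the first SKO+Flag array of day 6, either SKO+MEF2C array of day 6 or any 1 of the SKO arrays of day 10.

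**Figure D5:**
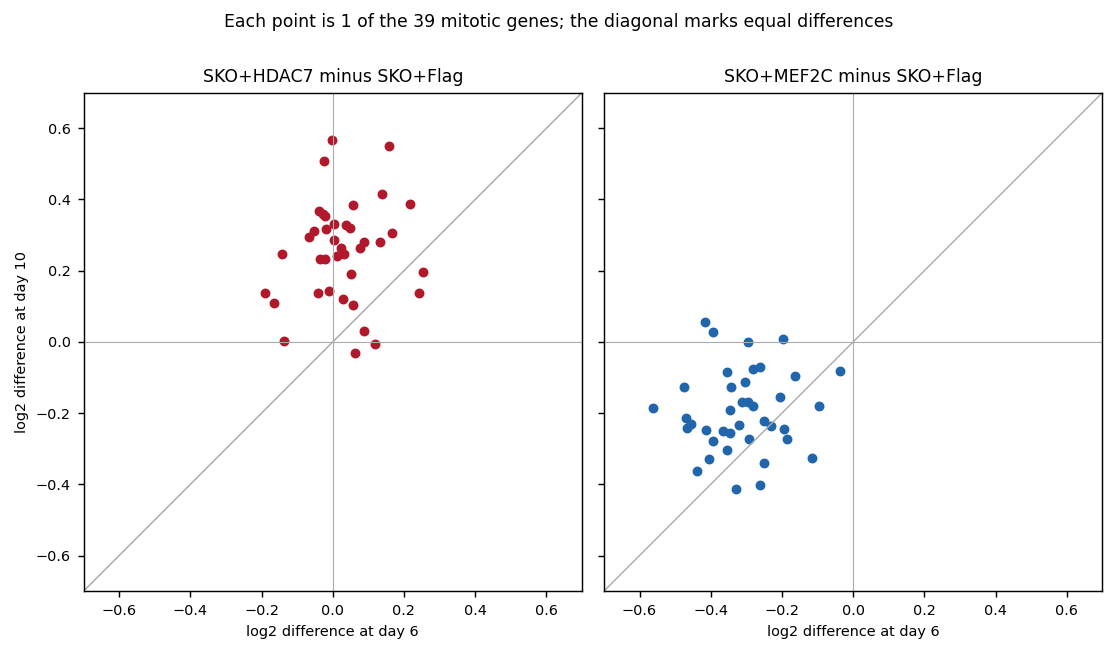
Log2 difference at day 6 (horizontal) and day 10 (vertical) for each of the 39 genes, for SKO+HDAC7 minus SKO+Flag (left) and SKO+MEF2C minus SKO+Flag (right). With HDAC7 most points lie near 0 at day 6 and above 0 at day 10, and with MEF2C all lie below 0 at day 6 and most at day 10.

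Within a vector, few mitotic genes changed between days. In SKO+HDAC7 cells Ccnb2 rose (0.32) and Foxm1 fell (-0.28) at day 10 relative to day 6, where limma called 7.86% of all genes higher and 6.70% lower, and the median of the 39 was 0.07. In SKO+MEF2C cells Cdc25b (0.47) and Ccnb2 (0.26) rose, where limma called 1.85% of all genes higher and 1.23% lower, and the median was -0.07. In SKO+Flag cells Cdc25b rose (0.24) while Ccna2 (-0.22), Aurka (-0.30) and Ect2 (-0.42) fell, where limma called 3.75% of all genes higher and 4.33% lower, and the median was -0.17. All 4 of these calls were lost without the first SKO+Flag array of day 10, and also without the first SKO+Flag array of day 6. Between the single GFP arrays, with no test, 32 of 39 genes were lower at day 10, with a median of -0.13. Aurka (-0.45), Cenpa (-0.42) and Mki67 (-0.40) were among the lower ones, and Plk1 (0.26) and Melk (0.11) among the higher ones.

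Among other genes of the cell cycle, most of those called moved in the same directions. Of all genes, limma called 4.83% higher and 6.06% lower with SKO+HDAC7 relative to SKO+Flag. With SKO+MEF2C it called 5.49% higher and 4.82% lower, and with SKO+Flag over GFP 17.5% higher and 18.2% lower. Of 75 further mitotic genes, 11 rose and 0 fell with SKO+HDAC7 relative to SKO+Flag, with a median of 0.11, and 25 fell and 1 rose with SKO+MEF2C, with a median of -0.21. The 1 that rose was the kinetochore gene Zwint (0.23), which also rose with HDAC7 (0.29). The condensin subunit Ncaph rose by 0.30 with HDAC7 and fell by 0.38 with MEF2C, and Sgo2a, which protects centromeric cohesion, fell by 0.51 with MEF2C. With SKO+Flag over GFP, 47 of the 75 rose and 1, the centromere gene Cenpt, fell (-0.37). DNA replication genes, which act in S phase, gave 17 higher and 0 lower of 42 with SKO+HDAC7, with a median of 0.18. The same list gave 13 lower and 0 higher with SKO+MEF2C, with a median of -0.15. The helicase subunit Mcm2 rose by 0.38 with HDAC7, and Dut, which removes dUTP, fell by 0.44 with MEF2C. Of 12 G1 cyclins, their kinases and inhibitors, 4 rose and 1 fell with SKO+HDAC7, and 1 rose and 6 fell with SKO+MEF2C. The largest change in both was of Cdkn1c, the inhibitor p57, which rose by 0.39 with HDAC7 and fell by 0.45 with MEF2C, and the inhibitor Cdkn2c fell by 0.32 with MEF2C. The inhibitor p15, encoded by Cdkn2b, moved the other way: it fell by 0.37 with HDAC7 and rose by 0.32 with MEF2C, and fell by 1.01 with SKO+Flag relative to GFP. Cyclin D1, encoded by Ccnd1, rose by 0.33 with HDAC7 and by 0.97 with SKO+Flag over GFP. In that last comparison 28 of the 42 replication genes rose and 1, E2f1, fell (-0.15). Of the 12 G1 genes 8 rose there, most of all Cdk6 (1.17), which differed by -0.40 with MEF2C. The 3 that fell were Cdkn2b, Cdkn2a (-0.89) and Cdk4 (-0.37).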

How the data were processed

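Expression values were deposited as log2 numbers for each probe set. The submitters' processing notes name RMA and Partek, with no version, and a build is not given in the sources used here. These log2 values were taken without further scaling or a filter on dim probe sets; array medians were 5.68 to 5.76. Of 28815 probe sets, 21780 had 1 gene symbol, 1605 several and 5430 none here, and only the first were used. Symbols were checked through Entrez IDs against RefSeq (GRCm38.p6): 21689 matched and 91 did not. For the 998 genes with several probe sets the one with the highest mean was kept; of the mitotic genes only Top2a had a second, at 4.28 to 4.63.

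In R 4.3.3 with limma 3.58.1, lmFit and eBayes were run on 14 arrays with a mean for each of 8 groups, with 6 residual and 4.71 prior degrees of freedom, and p-values were adjusted by Benjamini-Hochberg over 19935 genes. The procedure was also run on simulated data, and no result given here rests on that run. The mitotic genes and all lists were chosen with earlier results of these data known. Values of every array are given for the 4 called genes with the largest difference in each comparison of HDAC7, MEF2C and SKO+Flag with its control. Alternatives covered scaling, the prior, array weights, the groups fitted, dim genes, replicate blocks and each array left out. Arrays give no read depth, and their number limits the precision.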

Additional observations from a re-analysis of the deposited data

Results flagged for a closer look

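The effect of SKO+Flag over GFP on Espl1, which encodes separase, differed between the days. It was larger at day 10 than at day 6 by 0.399 ± 0.0948 (limma adjusted p = 0.0358). Espl1 was the only 1 of the 39 genes called, a share near that over all genes. Of all genes, limma called 1.9% with a more positive and 3.16% with a more negative effect at day 10. The SKO+Flag arrays gave Espl1 values of 6.68 and 6.73 (day 6) and 6.74 and 6.72 (day 10), against 6.50 (day 6) and 6.13 (day 10) for the GFP arrays. The SKO+Flag values of both days overlapped, and the GFP value of day 10 rests on 1 array. The call was lost when the compared groups were fitted alone and with an intensity-dependent robust prior, and without the first SKO+Flag array of day 6, either SKO+MEF2C array of day 6 or any 1 of the SKO arrays of day 10.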

How the results depend on the processing

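No called gene named in the comparisons averaged over days turned its direction under any alternative. The counts averaged over days moved by over 1.5 times for HDAC7 alone: 17 genes rose after quantile normalization instead of 8, and 5 to 16 with 1 array left out. For HDAC7 at day 10 (12 genes), the count was 0 with the compared groups fitted alone, 19 among genes above the median level, 7 after median centring, and 2 to 15 with 1 array left out; at day 6 (1 gene) it was 0 with the groups alone, a robust prior, median centring or a replicate block within each day, and 0 to 1 with 1 array left out. For MEF2C at day 10 (9 genes lower), it was 1 with the groups alone and 5 with a robust prior; with 1 array left out, 2 to 9 were lower and 0 to 2 higher. At day 6 (16 lower), it was 6 with the groups alone and 3 to 21 with 1 array left out. The change of effect between days gave 0 to 7 genes for HDAC7 and 0 to 4 for MEF2C with 1 array left out. For HDAC7 over MEF2C at day 6 (22) the range was 12 to 27. For SKO+Flag over GFP, the 1 gene with a larger effect at day 10 became 0 with the groups alone or a robust prior, 2 after quantile normalization, and 0 to 1 with 1 array left out; the 0 with a smaller effect became 1 among genes above the median level, 1 with a robust prior, and 0 to 1.

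Of the changes between days, SKO+Flag (1 gene higher, 3 lower) had 0 higher with the groups alone, a robust prior, a replicate block per vector or a block with crossed numbers, and 0 lower with array weights or the groups alone, 1 after median centring and 1 with the block per vector; 1 array left out gave 0 to 1 higher and 0 to 9 lower. SKO+HDAC7 (1 higher, 1 lower) had 2 higher with array weights, with the groups alone or with the block within each day, 5 among genes above the median level and 3 with a robust prior, and 0 lower after median centring or with either block; 1 array left out gave 1 to 2 higher and 0 to 1 lower. SKO+MEF2C (2 higher) had 1 with the groups alone, median centring or the block per vector, and 1 to 2 with 1 array left out. The causes of these shifts were not tested.

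The experiment numbers were not taken as pairs: replicate differences over all genes correlated between same-day groups at -0.086 to 0.184. With the replicate block within each day, 8 genes rose with HDAC7 and 25 fell with MEF2C. Between the days of SKO+Flag the correlation was -0.242, so a block with crossed numbers was added after seeing the data, as was the block per vector. Median centring moved the split of all called genes for HDAC7 to 698 higher and 1520 lower (963 and 1208 as reported) and for MEF2C to 863 and 1142 (1094 and 960).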
